A study of Mus musculus with 6 samples.

Results

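The genes described are 10 members of the BCL2 family: Bcl2, Bcl2l1 and Mcl1, which protect cells from apoptosis, Bak1 and Bok, which permeabilize the outer mitochondrial membrane, and Bid, Bad, Bik, Bmf and Bcl2l11, which carry only the BH3 motif. They were taken by name as the rows of the count tables whose Ensembl identifier maps to these symbols, and they are 10 of 53801 identifiers. All 10 passed the filter on low counts, as did 14531 genes in total. RNA was sequenced from MC3T3-E1 cells, a pre-osteoblast line from mouse calvaria, in 3 libraries of scramble control cells and 3 libraries of Hdac4 knockdown cells. Both groups carried a lentiviral vector with a ZsGreen1 reporter and puromycin resistance, and both were selected with 5 μg/ml puromycin for 7 days. The knockdown cells expressed 1 shRNA, Hdac4-shRNA3, so that an effect of Hdac4 and an effect of that shRNA or of the selected population cannot be told apart. Hdac4 is a class IIa histone deacetylase, and the comparison asked which transcripts changed when its level was lowered.

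BCL2 family proteins set the threshold for the mitochondrial pathway of apoptosis. Survival members hold the effectors and the BH3-only proteins in inactive complexes, BH3-only proteins released or induced by stress occupy that binding groove or activate the effectors directly, and oligomers of the effectors then open the outer membrane so that cytochrome c reaches the apoptosome. In bone, this balance is known to govern how long osteoblasts survive, and much of its control acts on the proteins, through phosphorylation, cleavage and degradation, which transcript counts do not measure.

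What the members share is the BH3 motif, the short helix that docks in the groove of a survival protein. The motif was searched in the longest complete coding transcript of each member (GENCODE M21, GRCm38) as leucine, any 3 residues, glycine, alanine or serine, aspartate, and then aspartate, glutamate, glutamine or glycine. Each of the 10 members had exactly 1 match. The residues allowed are those that occur in the members, so that finding a match in each was fixed in advance. A match was held by 10.3% of 21509 coding genes and by 5.08% of the 8764 with a protein no longer than the longest member. Without the last position of the pattern, 34.0% of coding genes held a match. The coding stretches of 36 bases around the matches are shown because they are the part that survival and death members have in common, with the codons of the conserved leucine and aspartate in capitals.
Bcl2: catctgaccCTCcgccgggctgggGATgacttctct
Bcl2l1: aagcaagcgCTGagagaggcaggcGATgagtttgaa
Mcl1: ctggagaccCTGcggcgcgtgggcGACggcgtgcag
Bak1: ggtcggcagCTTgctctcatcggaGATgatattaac
Bok: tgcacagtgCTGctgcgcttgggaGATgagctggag
Bid: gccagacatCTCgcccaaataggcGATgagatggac
Bad: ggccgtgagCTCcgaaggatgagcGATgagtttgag
Bik: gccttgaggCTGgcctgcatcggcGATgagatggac
Bmf: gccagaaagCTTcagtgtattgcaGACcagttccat
Bcl2l11: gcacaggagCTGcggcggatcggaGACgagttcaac
Those of Bcl2l1 (chr2:152829697-152829732, exon 2 of 3, minus strand) and Mcl1 (chr3:95659427-95659462, exon 1 of 3, plus strand) lie in the genes that changed most among the survival members. Those of Bik (chr15:83543075-83543110, exon 3 of 5, plus strand) and Bmf (chr2:118545100-118545135, exon 4 of 5, minus strand) belong to the BH3-only genes with the widest changes. The Bok stretch is joined from exons 2 and 3 on the plus strand of chromosome 1, and the other 9 each lie within 1 exon. A match is a description of the coding sequence, and binding was not measured.

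Hdac4 itself was at 40.3 ± 0.412 CPM (read counts scaled to library size with the TMM factors; SD, n = 3) in control libraries and 29.6 ± 0.981 CPM (SD, n = 3) in knockdown libraries, a log2 fold change of -0.44 (SE 0.0570, edgeR adjusted p = 8.98e-07). Gene counts were 29096544 to 31053296 per control library and 29554263 to 31651826 per knockdown library. Of all genes tested, 75.1% passed an adjusted p below 0.05 with a log2 fold change beyond 0.05, so that passing this threshold was the usual outcome. Of 11 pre-osteoblast markers, Alpl had at most 3 counts in each of the 6 libraries. In control libraries, Ibsp had 0 counts, Bglap at most 1, Sp7 2 to 7 and Dlx5 4 to 8, so that these markers were near absent there. Msx2 had 51 to 73 counts in control libraries, Twist1 52 to 64 and Runx2 1954 to 2131. Of the 8 markers tested, 6 were up and 2 down. The summed level of the 11 was 4772 to 4785 CPM in control libraries and 21470 to 22315 CPM in knockdown libraries. That sum was carried by Col1a1 (338 to 11015 CPM on average) and Col1a2 (1213 to 8572 CPM), while Spp1, the most abundant marker in control libraries, fell from 3154 to 2046 CPM. All 5 skeletal muscle markers, Myod1 and Des among them, were counted in the control libraries and fell, from a summed 870 to 907 CPM to 123 to 144 CPM. Of the other lists, the 5 macrophage markers summed to 1.60 to 2.59 CPM in control and 2.82 to 3.20 CPM in knockdown libraries (Csf1r up, Adgre1 at 0), and the 4 endothelial markers to 0.262 to 0.421 and 2.81 to 3.16 CPM (Pecam1 up). The 5 neuron markers summed to 28.2 to 33.6 and 11.0 to 14.3 CPM (Map2 down, Syt1 up, Rbfox3 and Snap25 at most 3 counts in each library), and the 4 adipocyte markers to 15.9 to 17.4 and 5.37 to 6.73 CPM (Cebpa down, Adipoq and Plin1 at most 3 counts). The 4 lymphocyte markers summed to at most 0.133 CPM. These shifts in lineage markers moved with the group, and their part in the results on the BCL2 family was not tested. In bulk RNA, fewer cells of a type and less RNA per cell cannot be told apart, and p-values measure the spread between these samples, described as 3 independent RNA samples a group, with no statement that they came from separate selections.

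Of the 10 members, 4 were upregulated (Mcl1, Bok, Bad and Bmf), 4 were downregulated (Bcl2l1, Bak1, Bid and Bik) and 2 did not pass the threshold (Bcl2 and Bcl2l11), against 38.0% up and 37.1% down of all genes tested; when libraries were scaled to 7 reference genes, 8 members were up and 1 was down. The 3 libraries of each group did not overlap for 8 of 10 members, against 76.8% of all genes tested. Shares of this size were close to those of all genes. Members beyond a log2 fold change of 0.5 were 2 of 10, Bmf and Bik, against 44.4% of all genes tested. The median size of the change was 0.37 on the log2 scale for the members and 0.46 for all genes tested, and the signed medians were -0.01 and 0.01. With TMM scaling, changes ran in both directions within each role, as the plot of CPM by library shows. With scaling to the reference genes, Bik was the only member called down.

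**Figure D1:**
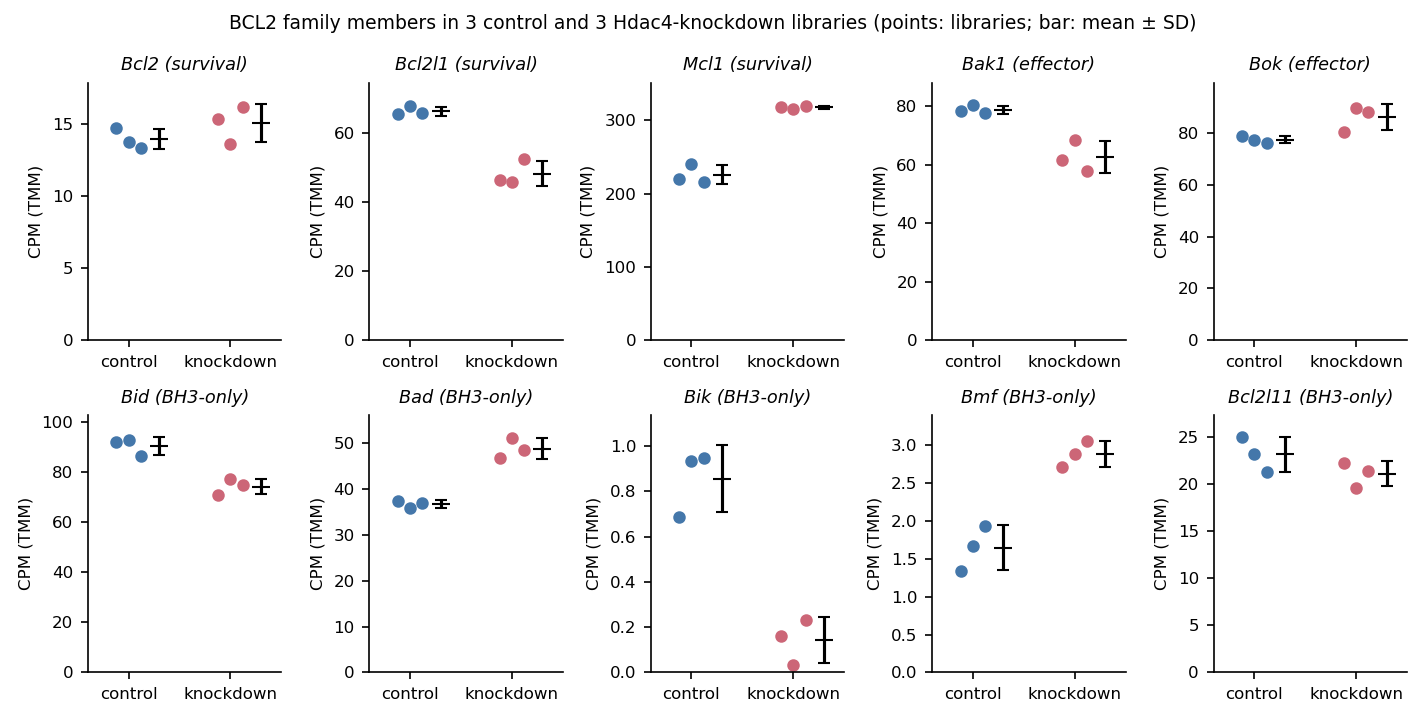
CPM (TMM-scaled, linear axis from 0) of each member in 3 control (blue) and 3 knockdown (red) libraries, with the mean ± SD as a black bar beside the points. The groups overlapped only for Bcl2 and Bcl2l11 among the 10 members; Mcl1 stood at 316 to 320 CPM in knockdown libraries against 216 to 241 CPM in control libraries, and Bik had at most 0.233 CPM in knockdown libraries.

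Among the survival members, Mcl1 rose, Bcl2l1 fell and Bcl2 did not pass the threshold. Mcl1 (ENSMUSG00000038612, chr3:95658788-95663176), a short-lived protein that restrains Bak, had 6732, 7210 and 6162 counts in control libraries and 9837, 10179 and 9621 in knockdown libraries. The corresponding levels were 220, 241 and 216 CPM in control libraries and 318, 316 and 320 CPM in knockdown libraries. The 3 knockdown libraries all lay above the 3 control libraries and nearly coincided with each other. The level rose to 141% of control, a log2 fold change of 0.49 (SE 0.0435, edgeR adjusted p = 3.82e-09). Bcl2l1 (ENSMUSG00000007659, chr2:152780668-152831728), which encodes Bcl-xL and, from a shorter splice form, a protein that promotes death, had 1996, 2027 and 1871 counts in control libraries and 1438, 1471 and 1576 in knockdown libraries. Its levels were 65.3, 67.7 and 65.6 CPM in control libraries and 46.5, 45.6 and 52.4 CPM in knockdown libraries. Every knockdown library was below every control library, with knockdown replicate 3 the nearest to them. The level fell to 72.7% of control, a log2 fold change of -0.46 (SE 0.0561, edgeR adjusted p = 4.21e-07), and was 0.05 when libraries were scaled to the reference genes. Counts per gene do not separate the Bcl2l1 splice forms.

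Bcl2 (ENSMUSG00000057329, chr1:106538178-106714274), the founding member of the family, had 449, 412 and 380 counts in control libraries and 474, 438 and 487 in knockdown libraries. Its levels were 14.7, 13.8 and 13.3 CPM in control libraries and 15.3, 13.6 and 16.2 CPM in knockdown libraries. Knockdown replicate 2 lay between the control libraries, and the groups overlapped. The log2 fold change was 0.11 with a 95% interval of -0.07 to 0.29 (edgeR adjusted p = 0.269), so that an increase of the size seen for Mcl1 lay outside the interval. Of its 9157 annotated exon bases, 558 are shared with D630008O14Rik, and reads there could not be assigned to 1 gene without strand.

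The effectors moved in opposite directions. Bak1 (ENSMUSG00000057789, chr17:27019810-27029009), which resides on the outer mitochondrial membrane, had 2401, 2405 and 2214 counts in control libraries and 1909, 2213 and 1739 in knockdown libraries. Its levels were 78.6, 80.3 and 77.7 CPM in control libraries and 61.7, 68.7 and 57.8 CPM in knockdown libraries. The control libraries lay close together, and the knockdown libraries were all lower and more spread out. The level fell to 79.5% of control, a log2 fold change of -0.33 (SE 0.0565, edgeR adjusted p = 3.01e-05), and was 0.18 when scaled to the reference genes. Bok (ENSMUSG00000026278, chr1:93685660-93695764), an effector that survival members restrain little and that is held down by degradation of its protein, had 2408, 2309 and 2169 counts in control libraries and 2488, 2893 and 2654 in knockdown libraries. Its levels were 78.8, 77.1 and 76.1 CPM in control libraries and 80.4, 89.8 and 88.2 CPM in knockdown libraries. The groups did not overlap, but knockdown replicate 1 was only just above the highest control library. The log2 fold change was 0.15 (SE 0.0497, edgeR adjusted p = 0.00863), and it was 0.13 without control replicate 3, where the adjusted p was 0.0591. Bak1 shares 614 of its 2407 annotated exon bases with Ggnbp1, whereas Bok shares none.

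Among the BH3-only members, Bad and Bmf rose, Bid and Bik fell, and Bcl2l11 did not pass the threshold. Bid (ENSMUSG00000004446, chr6:120891930-120916853), which caspase cleavage turns into an activator of the effectors, had 2812, 2783 and 2464 counts in control libraries and 2194, 2487 and 2250 in knockdown libraries. Its levels were 92.0, 93.0 and 86.4 CPM in control libraries and 70.9, 77.2 and 74.7 CPM in knockdown libraries. The groups were separated by more than the spread within either. The level fell to 82.1% of control, a log2 fold change of -0.28 (SE 0.0490, edgeR adjusted p = 3.19e-05), and was 0.22 when scaled to the reference genes. Bid shares 628 of its 3550 annotated exon bases with its neighbour Bcl2l13, itself a gene of the family.

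Bad (ENSMUSG00000024959, chr19:6941861-6951899), a sensitizer that binds Bcl2 and Bcl-xL and is kept away from them when phosphorylated, had 1142, 1071 and 1052 counts in control libraries and 1442, 1647 and 1457 in knockdown libraries. Its levels were 37.4, 35.8 and 36.9 CPM in control libraries and 46.6, 51.1 and 48.4 CPM in knockdown libraries. Each knockdown library exceeded each control library. The level rose to 133% of control, a log2 fold change of 0.41 (SE 0.0558, edgeR adjusted p = 1.85e-06). Bad shares 524 of its 2558 annotated exon bases with Gpr137.

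Bik (ENSMUSG00000016758, chr15:83526862-83544634), a BH3-only protein that sits mainly at the endoplasmic reticulum, was scarce, with 21, 28 and 27 counts in control libraries and 5, 1 and 7 in knockdown libraries. Its levels were 0.687, 0.935 and 0.947 CPM in control libraries and 0.162, 0.031 and 0.233 CPM in knockdown libraries. The groups did not overlap, and knockdown replicate 2 rested on 1 count. The log2 fold change was -2.58 with a 95% interval of -3.58 to -1.58 (edgeR adjusted p = 7.57e-05). Leaving out each library in turn moved it between -3.11 and -2.10. Bmf (ENSMUSG00000040093, chr2:118528757-118549687), which is tethered to the cytoskeleton until released, had 41, 50 and 55 counts in control libraries and 84, 93 and 92 in knockdown libraries. Its levels were 1.34, 1.67 and 1.93 CPM in control libraries and 2.71, 2.89 and 3.06 CPM in knockdown libraries. All knockdown libraries were above all control libraries. The log2 fold change was 0.81 (SE 0.199, edgeR adjusted p = 0.00118). Bik and Bmf were thus the members with the widest changes and also those with the fewest counts.

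Bcl2l11 (ENSMUSG00000027381, chr2:128126038-128162547), which encodes Bim, an activator that binds every survival member, had 764, 694 and 607 counts in control libraries and 688, 632 and 645 in knockdown libraries. Its levels were 25.0, 23.2 and 21.3 CPM in control libraries and 22.2, 19.6 and 21.4 CPM in knockdown libraries. The groups overlapped. The log2 fold change was -0.14 with a 95% interval of -0.30 to 0.02 (edgeR adjusted p = 0.112), and without control replicate 3 it was -0.21 with an adjusted p of 0.0329. For the 8 members that passed the threshold, the two-sided exact permutation test gave p = 0.1, the smallest it can give for 3 libraries against 3, and for Bcl2 and Bcl2l11 it gave p = 0.3. The longest run of the 21-base Hdac4-shRNA3 target found in a transcript of any member was 10 bases, in Bik. How often other transcripts hold such a run was not computed, and an effect of the shRNA on a member was not tested.

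**Figure D2:**
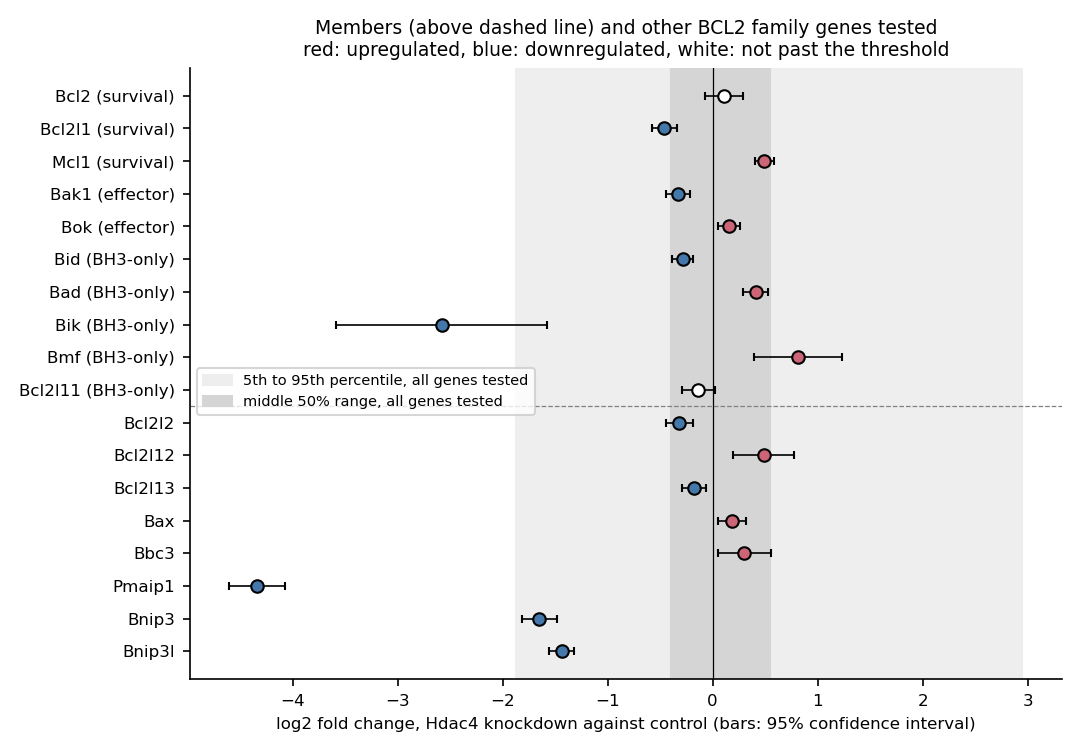
Log2 fold change in Hdac4 knockdown against control libraries (x axis, dots) with the 95% confidence interval (bars) for the 10 members above the dashed line and 8 other genes of the family below it. Grey bands mark the 5th to 95th (-1.88 to 2.95) and the 25th to 75th percentile (middle 50% range, -0.40 to 0.55) of all genes tested; 7 of the 10 members lie within -0.46 to 0.41, while Bik at -2.58 and Pmaip1 at -4.34 lie below the 5th percentile.

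To compare members with each other, CPM was divided by the annotated exon length in kilobases. In control libraries the order of per-kilobase levels was Mcl1 (66.1 CPM per kilobase), Bok (42.0), Bak1 (32.8), Bid (25.5), Bcl2l1 (14.4), Bad (14.3), Bcl2l11 (2.88), Bcl2 (1.52), Bik (0.538) and Bmf (0.314). The libraries of Bcl2l1 and Bad overlapped, and no other neighbours in that order did. In knockdown libraries the order was Mcl1 (93.0 CPM per kilobase), Bok (46.8), Bak1 (26.1), Bid (20.9), Bad (19.0), Bcl2l1 (10.5), Bcl2l11 (2.63), Bcl2 (1.64), Bmf (0.549) and Bik (0.0891). There the libraries of Bid and Bad overlapped. By this measure Bad stood level with Bcl2l1 in control cells and above it in knockdown cells, and Bik and Bmf exchanged places. The exon length includes bases shared with other genes, 524 of 2558 for Bad, 614 of 2407 for Bak1 and 628 of 3550 for Bid. Bcl2 shares 558 of 9157, and the other members share none. Reads there could not be assigned to 1 gene, so levels of Bad, Bak1, Bid and Bcl2 may be understated. The closeness of Bad to Bcl2l1 in control cells, and the order of Bak1 and Bok there, may depend on that length.

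**Figure D3:**
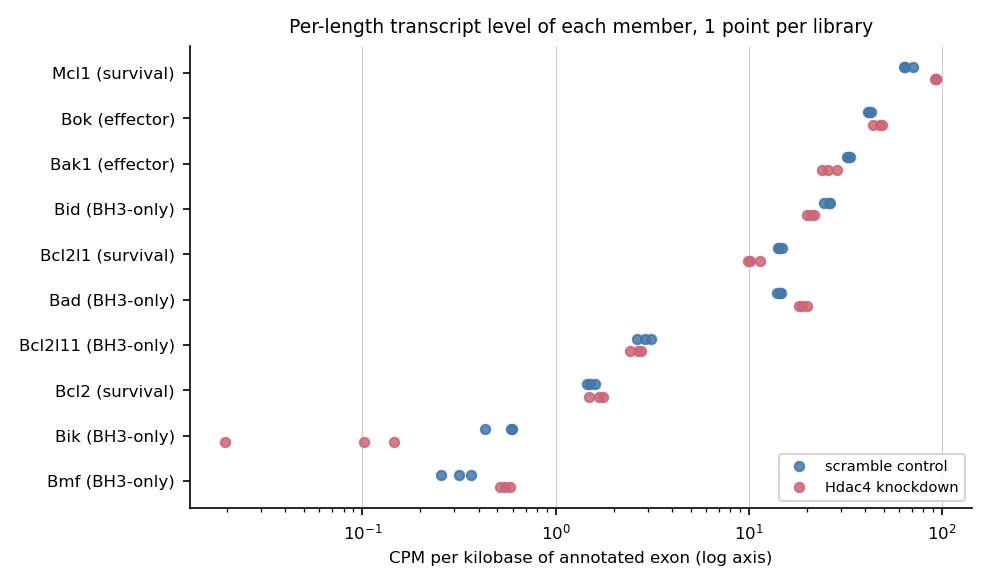
CPM per kilobase of annotated exon (x axis, log scale) of each member, with 1 point per library, control in blue and knockdown in red. Levels span from 0.0195 CPM per kilobase for Bik in knockdown replicate 2 to 93.5 for Mcl1; the control points of Bcl2l1 and Bad coincide and their knockdown points separate.

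Mcl1 made up most of the transcripts of the 3 survival members. Its share of the summed per-kilobase level of Mcl1, Bcl2l1 and Bcl2 was 80.5% ± 0.639 (SD, n = 3) in control libraries and 88.5% ± 0.714 (SD, n = 3) in knockdown libraries. The share of Bcl2l1 was 17.6% ± 0.554 and 9.98% ± 0.622, and that of Bcl2 was 1.86% ± 0.133 and 1.56% ± 0.117. The sum itself was 80.3, 86.7 and 79.0 CPM per kilobase in control libraries and 105, 104 and 107 in knockdown libraries. Of the summed level of Bak1 and Bok, Bok made up 56.2% ± 0.538 in control libraries and 64.3% ± 2.06 in knockdown libraries. The sums, 73.6 to 75.5 and 69.3 to 77.3 CPM per kilobase, overlapped. Bak1 shares 614 of its 2407 exon bases with Ggnbp1 and Bok shares none, so the share of Bok may be overstated in both groups. Among the BH3-only members, Bid went from 58.5% ± 1.06 to 48.4% ± 0.310 of the sum and Bad from 32.9% ± 1.11 to 44.0% ± 0.555, while the sums, 42.4 to 44.3 and 41.6 to 44.7 CPM per kilobase, again overlapped. Among these members, the composition of each role therefore differed between groups. With TMM scaling, the summed level of these members was separated between groups only for the survival role among the 3 roles. Other genes of the family are left out of the sums. From control to knockdown libraries, the mean of the survival gene Bcl2l2 went from 7.79 to 6.25 CPM per kilobase. The effector gene Bax went from 21.5 to 24.4, and the BH3-only genes Bbc3 and Pmaip1 from 4.07 to 5.02 and from 7.81 to 0.385. Shares and sums with those genes added were not computed. The shares given are descriptions, and those of Bak1, Bid and Bad also depend on an exon length that includes bases shared with other genes. The sums of all 3 roles, unlike the shares, depend on the scaling between libraries. Whether the effector and BH3-only sums overlap under other scalings was not computed.

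Ratios of counts within a library do not depend on that scaling. Of 14 pairs compared, 12 did not overlap between the groups, 5 of them higher and 7 lower in knockdown libraries. For single genes tested, 76.8% did not overlap, and the share over all pairs of genes was not computed. The pairs reuse members, most often Bcl2l1 and Mcl1, so they are not separate observations. The two-sided exact permutation p could not go below 0.1, which became 0.117 after Benjamini-Hochberg adjustment over the 14 pairs, so that no pair could reach 0.05. The ratio of Bcl2l1 to Mcl1 was 0.296, 0.281 and 0.304 in control libraries and 0.146, 0.145 and 0.164 in knockdown libraries, a difference of -0.96 in log2 ratio. Bcl2l1 thus lost ground to Mcl1 in all 3 knockdown libraries. The ratio of Bad to Bcl2l1, its main partner, was 0.572, 0.528 and 0.562 in control libraries and 1.00, 1.12 and 0.924 in knockdown libraries, a difference of 0.87 in log2 ratio. The ratio of Bak1 to Bok was 0.997, 1.04 and 1.02 in control libraries and 0.767, 0.765 and 0.655 in knockdown libraries, a difference of -0.49. Against Bcl2l1, the log2 ratio was higher in knockdown libraries for Bid (0.18), Bcl2l11 (0.33), Bmf (1.29) and Bcl2 (0.57) and lower for Bik (-2.55). Against Mcl1, it was lower for Bid (-0.78), Bcl2l11 (-0.63), Bcl2 (-0.39) and Bik (-3.50). Leaving out single libraries moved the difference for Bik between -3.06 and -1.70 against Bcl2l1 and between -4.07 and -2.63 against Mcl1, the smallest sizes being those without knockdown replicate 2 and its 1 count. The groups overlapped for Bad to Mcl1 (-0.09) and Bmf to Mcl1 (0.33). The BH3-only members other than Bik therefore stood higher relative to Bcl2l1, and none of the 5 stood higher relative to Mcl1 without overlap.

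Of 15 other genes of the family, 8 passed the filter, 3 of them up and 5 down, and their median was -0.25 on the log2 scale. Of all genes tested, 38.0% were up and 37.1% down, with a median of 0.01, and 8 genes are few for comparing such shares. With scaling to the reference genes, 5 were up and 3 down. Pmaip1, which encodes Noxa, a BH3-only protein that binds Mcl1 and favours its degradation, had 672, 615 and 613 counts in control libraries and 27, 33 and 38 in knockdown libraries. Its levels were 22.0, 20.5 and 21.5 CPM in control libraries and 0.873, 1.02 and 1.26 CPM in knockdown libraries. It was the gene of the family with the largest change, down to 4.93% of control (log2 fold change -4.34, SE 0.127, edgeR adjusted p = 9.19e-17). Bnip3, a mitophagy receptor with a BH3-like stretch, went from 33.1, 38.2 and 33.6 CPM to 11.0, 11.9 and 10.4 CPM (log2 fold change -1.65, SE 0.0790, edgeR adjusted p = 2.47e-13). Its relative Bnip3l went from 167, 162 and 171 CPM to 67.2, 55.5 and 61.5 CPM (log2 fold change -1.44, SE 0.0565, edgeR adjusted p = 9.88e-15). Pmaip1, Bnip3 and Bnip3l each fell in all 3 knockdown libraries without overlap, and they remained down under every alternative tried.

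The other 5 changed less. Bcl2l2, the survival protein Bcl-w, had a log2 fold change of -0.32 (edgeR adjusted p = 0.000150), which was 0.19 when scaled to the reference genes. Bcl2l13, a mitophagy receptor whose exons overlap those of Bid, had -0.18 (edgeR adjusted p = 0.00676). Bax, the effector that moves from the cytosol to mitochondria, was at 33.5, 34.5 and 33.6 CPM in control libraries and 35.2, 40.4 and 39.9 CPM in knockdown libraries, a log2 fold change of 0.18 (edgeR adjusted p = 0.0126). Bbc3, which encodes the p53-induced BH3-only protein Puma, had 0.30 with groups that overlapped (edgeR adjusted p = 0.0313). Bcl2l12 had 0.49 (edgeR adjusted p = 0.00394). Bax and Bbc3 lost the adjusted p threshold in DESeq2 and when any of 3 (Bax) or 4 (Bbc3) single libraries was left out, and Bcl2l13 lost it with library size alone, with upper quartile scaling and without knockdown replicate 3, whereas Bcl2l12 kept it in each of these fits. Bcl2l2, Bcl2l12, Bcl2l13, Bax and Bnip3 share exon bases with overlapping genes, and their counts are less certain. Bcl2a1b, Bcl2a1d, Bcl2l10 and Hrk had no count in any of the 6 libraries, Bcl2a1a and Bcl2l14 each had 2 counts in knockdown replicate 3 and 0 elsewhere, and Bcl2l15 averaged 4.33 counts per library.

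Around the family, 7 lists of apoptosis genes were described by their counts. With the other genes of the family they hold 107 genes, of which 97 were tested, 32 upregulated (33.0%), 48 downregulated (49.5%) and 17 not past the threshold, against 38.0% up and 37.1% down of all genes tested. Downstream of the mitochondria, 6 of 9 apoptosome and caspase genes fell and 1 rose, with a median of -0.45 (1 down and 4 up when scaled to the reference genes). Dffa, the inhibitor of the apoptotic nuclease, was at -0.61. Of 9 mitochondrial release and pore genes, 6 fell and 2 rose, with a median of -0.39 (2 down and 5 up when scaled to the reference genes). Aifm1, a flavoprotein of the intermembrane space, was at -1.17, the channel gene Vdac1 at -0.69, and the nuclease gene Endog at 0.44.

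Of 8 inhibitor of apoptosis genes, 3 rose and 3 fell, with a median of 0.05 (5 up and 3 down when scaled to the reference genes). Birc3, a ubiquitin ligase of the TNF receptor pathway, was at 0.385 ± 0.123 CPM (SD, n = 3) in control libraries and 7.79 ± 0.781 CPM (SD, n = 3) in knockdown libraries, a log2 fold change of 4.34. Xiap, the caspase inhibitor, was at -0.93 and Birc5, which also acts in mitosis, at -1.20. Naip2 was at 2.27, but the Naip genes are near-identical copies and their reads may be split between them. In the death receptor arm, 4 of 9 tested genes rose and 2 fell, with a median of 0.13 (7 up and 0 down when scaled to the reference genes). The receptor genes Fas (1.76) and Tnfrsf10b (0.81) rose, whereas Casp8 (-0.47), the initiator caspase, and Cflar (-0.62), which restrains it, fell.

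Among genes whose products bind the members or turn them over, 5 of 19 rose and 9 fell, with a median of -0.09 (13 up and 6 down when scaled to the reference genes). The list includes Ywhaz, itself 1 of the 7 reference genes. Huwe1, a ubiquitin ligase for Mcl1, went from 473 ± 12.6 CPM to 1099 ± 28.5 CPM (SD, n = 3 each; log2 fold change 1.22), and Usp9x, which removes ubiquitin from Mcl1, from 410 ± 2.42 CPM to 164 ± 7.95 CPM (log2 fold change -1.32). Of the phosphoserine-binding adaptors of the family that retains Bad, Ywhah (-1.12), Ywhaz (-1.06), Ywhae (-0.81) and Ywhaq (-0.61) fell, Ywhab (-0.05) and Ywhag (0.00) did not pass the threshold, and Sfn, with 34 to 48 counts per control library, rose (3.39); Ywhaz, Ywhae, Ywhaq, Ywhab and Ywhag were added after their values were seen. Among transcription factors known to act on the members, 10 of 17 tested rose and 6 fell, with a median of 0.14 (13 up and 0 down when scaled to the reference genes). Foxo3 (1.14), known to drive Bcl2l11, and Ddit3 (1.06), a factor of the stress response of the endoplasmic reticulum, rose, whereas Hif1a (-0.66), known to drive Bnip3, and Stat5a (-0.43), known to drive Bcl2l1, fell. Among kinases and phosphatases that modify the members, 4 of 18 rose and 11 fell, with a median of -0.25 (12 up and 4 down when scaled to the reference genes). The Bad kinase genes Rps6ka1 (2.55) and Pim3 (-0.97) differed in direction, as did the calcineurin subunit genes Ppp3ca (1.71) and Ppp3cb (-0.75), whose enzyme dephosphorylates Bad. Of the genes named from these 7 lists, Casp8 (0.041, edgeR adjusted p = 0.473) and Stat5a (0.077, adjusted p = 0.301) changed sign when scaled to the reference genes. Under that scaling these 2 genes, Dffa (-0.10, edgeR adjusted p = 0.272), Cflar (-0.11, adjusted p = 0.124) and Hif1a (-0.15, adjusted p = 0.0521) no longer passed the threshold. Endog lost it in DESeq2 (adjusted p = 0.0605), without control replicate 1 and without control replicate 2.

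**Figure D4:**
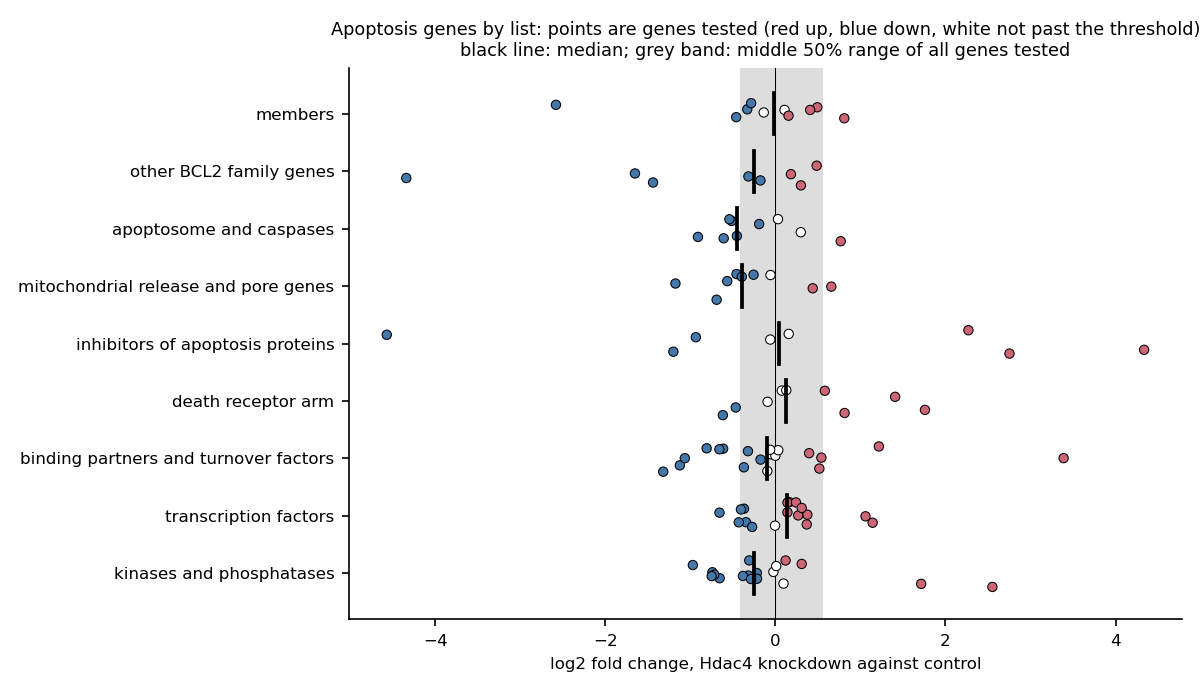
Log2 fold change (x axis) of each tested gene in the members, the other genes of the family and 7 lists of apoptosis genes, with the median of each list as a black line and the 25th to 75th percentile of all genes tested as a grey band. Medians run from -0.45 for apoptosome and caspases to 0.14 for transcription factors, and the member median is -0.01; scaling to the reference genes shifts all values up by about 0.51.

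The directions of the smaller changes rest on the scaling between libraries. With library size alone, upper quartile or DESeq2 size factors in place of TMM, all 8 calls among the members kept their direction, as the plot of alternatives shows. Scaling to 7 reference genes moved the median of all genes by 0.51 on the log2 scale, and 5 of these 7 genes were themselves called down under TMM, with Hprt at -0.74 and Ppia at -0.96, while Gusb was up (0.40) and Tbp was not called (0.03). Under that scaling Bcl2l1 (0.05), Bak1 (0.18), Bid (0.22), Bcl2l11 (0.37) and Hdac4 itself (0.07) were no longer negative, whereas Bik stayed at -2.08. That scaling moves every gene by nearly the same amount, so the order of the members along the log2 scale was bound to stay the same. The ratios within libraries do not depend on the scaling.

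**Figure D5:**
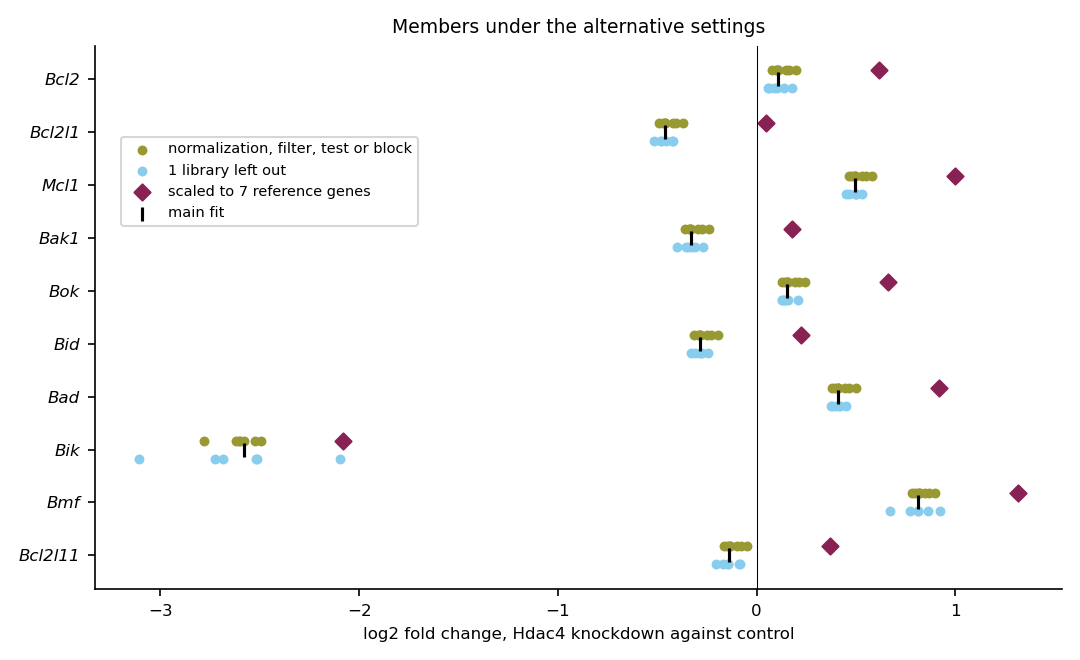
Log2 fold change (x axis) of each member in the edgeR fit with TMM (black line), under other normalizations, filters, tests or the replicate block (olive), with each library left out in turn (light blue) and scaled to 7 reference genes (purple diamonds). Diamonds lie about 0.51 to the right of the black lines, past 0 for Bcl2l1, Bak1, Bid and Bcl2l11, and the widest leave-one-out range is that of Bik, from -3.11 to -2.10.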

How the data were processed

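RNA of 3 scramble control and 3 Hdac4 knockdown libraries of MC3T3-E1 cells was poly-A selected, prepared with an unstranded kit and sequenced paired-end. The authors deposited 1 table per library with unnormalized counts of reads on Ensembl genes; the submitters' processing notes name FastQC, STAR 2.7.3a, HTSeq 0.12.4 and mm10. Summary lines (reads outside genes, 3.17 to 5.07%; ambiguous reads, 5.84 to 6.51%; multiply aligned reads, 3.88 to 4.77%) were left out. Of 53801 identifiers, 53706 matched GENCODE M21 (GRCm38), which gave symbols, positions and exon lengths.

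The groups were tested by the quasi-likelihood F test (edgeR 4.0.16, R 4.3.3) after TMM scaling and filterByExpr, with Benjamini-Hochberg adjustment over 14531 genes. The study's thresholds (adjusted p below 0.05, log2 fold change beyond 0.05) were applied in both directions; the test behind the study's sequencing calls is not given in the sources used here. The fit was tested on simulated data with 200 changed genes and all others unchanged. In the real libraries 75.1% of genes passed the threshold, so that simulation does not bear on the scaling used here. Libraries of a group differed by more than sampling noise (chi-square per degree of freedom 3.23 to 8.36). Deviations of same-numbered libraries from their group means correlated at -0.01 to 0.03, and those of different-numbered libraries at -0.04 to 0.03. No shared effect of the replicate number was detected, which cannot show whether same-numbered libraries were handled together.

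Alternatives were DESeq2 1.42.0 and its size factors, limma-voom (limma 3.58.1), library size alone, upper quartile, 7 reference genes, 2 other filters, thresholds of 0, 0.5 and 1, a replicate block and leaving out each library. Named genes are the 10 members, Hdac4, 15 other genes of the family and, in each further list, up to 2 called genes per direction with the largest change and at least 100 counts on average. The exceptions are marker and reference genes, and the Naip and Ywha genes said above to be added after their values were seen. Some genes that this rule names are not reported here. Members and lists were chosen with earlier results of these data known. The group label gives Hdac4-shRNA, and the number of the shRNA comes from the paper's methods.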

Additional observations from a re-analysis of the deposited data

Results flagged for a closer look

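Reads that fell outside annotated genes, which no comparison above uses, made up 4.79% ± 0.241 (SD, n = 3) of the reads in the tables of knockdown libraries and 3.28% ± 0.122 (SD, n = 3) in control libraries, and the groups did not overlap. Genes with at least 1 count numbered 22148 to 22640 in knockdown libraries and 19373 to 19797 in control libraries. Their part in the results on the BCL2 family was not tested.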

How the results depend on the processing

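Of 149 member values under the alternatives, 141 kept their direction and their side of the threshold. Scaling to reference genes gave 10098 genes up and 2118 down, 8 members up and 1 down, 5 other genes of the family up and 3 down, and 59 genes of the 7 further lists up and 16 down (29 and 43 with TMM). It raised Bcl2 to 0.62 and made Bak1 (0.18), Bid (0.22), Bcl2l11 (0.37), Bcl2l2 (0.19) and Bcl2l13 (0.33) positive. Bcl2l1 (0.047, edgeR adjusted p = 0.452) and Hdac4 (0.066, adjusted p = 0.305) changed sign but did not pass the threshold. The same held for Casp8 (0.041, adjusted p = 0.473) and Stat5a (0.077, adjusted p = 0.301). That scaling holds the level of 7 genes constant, of which 5 were called down with TMM. Upper quartile scaling brought Bcl2 to 0.20 (adjusted p = 0.0476). A fold change threshold of 0.5 on the log2 scale left 3579 genes up and 2879 down, 1 member up and 1 down, 0 other family genes up and 3 down, and 17 list genes up and 23 down; a threshold of 1 left 2397 and 1543, 0 members up and 1 down, 0 and 3, and 11 and 6. DESeq2 called 1 other family gene up. Leaving out single libraries gave 3 to 4 members up, 4 to 5 down and 1 to 3 other family genes up; without control replicate 3, Bok lost the threshold (range 0.13 to 0.21) and Bcl2l11 passed it (range -0.21 to -0.084), and the cause was not tested. The replicate block gave 5523 genes up and 5441 down, with 4 members up and 4 down, and changed no call among the members. Requiring 10 counts in every library removed Bik and Birc3. Depth limits Bik and Bmf, and gene counts cannot separate splice forms.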
